A study of Mus musculus with 24 samples.

Results

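Activating transcription factor 4 (ATF4) and the genes it is known to switch on, together with the cytosolic aminoacyl-tRNA synthetases, were followed in sorted sensory neurons with and without Tsc2. The 41 genes were listed by name from textbook knowledge of the pathway: 6 transcription factors, 4 stress response effectors, 2 secreted factors, 6 enzymes of serine synthesis and one-carbon metabolism, 5 other enzymes of amino acid synthesis and 18 synthetases, out of 47643 genes counted. Of these, 38 had enough reads to be tested. Fgf21, Gdf15 and Cbs did not.

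The libraries came from L4 dorsal root ganglia (DRG) of mice aged 8-9 weeks on a mixed C57BL/6 and AJ background, taken from the side opposite a sciatic nerve crush made 3 days earlier. Each of 24 libraries held 100 cells sorted for the green reporter, and 3 such libraries (A to C) were made from each mouse. The 4 control mice carried Nav1.8-Cre, Tsc2 flox/+ and Rosa26-ZsGreen. The 4 Nav-Tsc2 mice carried Nav1.8-Cre, Tsc2 flox/null and Rosa26-ZsGreen. Both groups therefore carried Cre, the reporter and the contralateral injury, and the controls could lose 1 copy of Tsc2 in the same neurons. Nav1.8-Cre recombines from late in embryonic life in nearly all nociceptors and also in a part of the myelinated neurons, so the sorted cells were a mixture of sensory neuron types, and the deletion was made long before the adult age studied. Replicates 1 and 2 were male and 3 and 4 female in both genotypes.

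ATF4 is a bZIP transcription factor whose mRNA is translated preferentially when eIF2α is phosphorylated, for example by the kinases that sense uncharged tRNA or misfolded protein. Signaling through mTORC1, which the TSC1/TSC2 complex restrains, also raises ATF4. It pairs with C/EBP proteins, binds composite C/EBP-ATF elements, and turns on amino acid transporters, enzymes that make serine, asparagine and proline, the mitochondrial one-carbon enzymes, and tRNA synthetases, which attach each amino acid to its tRNA. In neurons the same program is known from injury and from stress of the endoplasmic reticulum.

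Tsc2 itself was measured first. Levels are given as CPM, the counts of a gene per 1000000 counts of the scaled library total. Its level was 13.4, 24.7, 21.5 and 24.1 CPM in control mice 1 to 4 and 8.70, 8.51, 7.30 and 11.0 CPM in Nav-Tsc2 mice 1 to 4, a log2 fold change of -1.24 (edgeR quasi-likelihood test, adjusted p = 0.00400). Total gene counts ran from 8339220 to 34228180 per library and from 47959617 to 61290435 per mouse, and the share of alignments assigned to no gene was 48.8% ± 1.20 (SD, n = 12 libraries) in controls and 51.1% ± 1.94 in Nav-Tsc2. The highest unassigned share was 55.9%, in library A of Nav-Tsc2 mouse 4. Across 8445 genes, the median correlation of a library with the others of its genotype ran from 0.841 (library A of control mouse 3) to 0.928 in controls and from 0.932 to 0.963 in Nav-Tsc2. Markers of sorted nociceptors were abundant in both groups, with Scn10a, which encodes Nav1.8, at 670 CPM in controls and 608 CPM in Nav-Tsc2. Among the nociceptor markers, Prph was higher and Calca lower. Glial markers summed to 3115 to 3251 CPM in control mice and 2086 to 2687 CPM in Nav-Tsc2 mice, with 1 of 14 called (S100b, lower) and a median log2 fold change of 0.04. Endothelial markers (6, of which 3 tested and 2 higher, Kdr and Flt1) summed to 0.474 to 2.11 CPM against 5.90 to 16.0 CPM. Macrophage markers (6, of which 5 tested and 1 higher, Cx3cr1) summed to 2.80 to 8.21 CPM against 8.48 to 23.6 CPM. Fibroblast markers summed to 73.1 to 236 CPM against 121 to 196 CPM and large neuron markers to 559 to 993 CPM against 478 to 753 CPM, with none called in either list. Red blood cell markers stayed at or below 1.66 CPM in every mouse. In pooled sorted cells, fewer cells of a type and less RNA per cell cannot be told apart, and every CPM value is a share of the counted RNA.

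Messenger RNAs of a part of the ATF4 program and of a part of the synthetases were higher in Nav-Tsc2 neurons. Of the 38 members tested, 18 were called higher, meaning an adjusted p below 0.05 and a log2 fold change above 0.5, and 0 were called lower. Over all 17178 genes tested, 9.12% were called higher, 8.00% lower and 17.1% in either direction. The median log2 fold change was 0.68 over the 38 members and 0.0082 over all genes tested. All 4 Nav-Tsc2 mice lay above all 4 control mice for 22 of the 41 members. These were the 18 called, 3 other tested members and Gdf15, which was not tested. Over all genes tested, the share was 14.6% above and 12.3% below. The 1 member below was Kars. For the other 18 members the genotypes overlapped. Among the 18 members called, the mice of the genotypes overlapped for none, and for 12 every one of the 12 Nav-Tsc2 libraries exceeded the highest of the 12 control libraries. For the remaining called members at least 9 Nav-Tsc2 libraries did. A call already favors genes whose mice separate, and the 3 libraries of a mouse are technical repeats. The share of library separation over all genes was not counted. These counts therefore describe the called members and are no separate evidence. Apart from the kind of gene, the called members had little in common in level: their control levels ran from 1.22 (Vldlr) to 178 (Nars) CPM per kilobase of annotated exon.

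**Figure D1:**
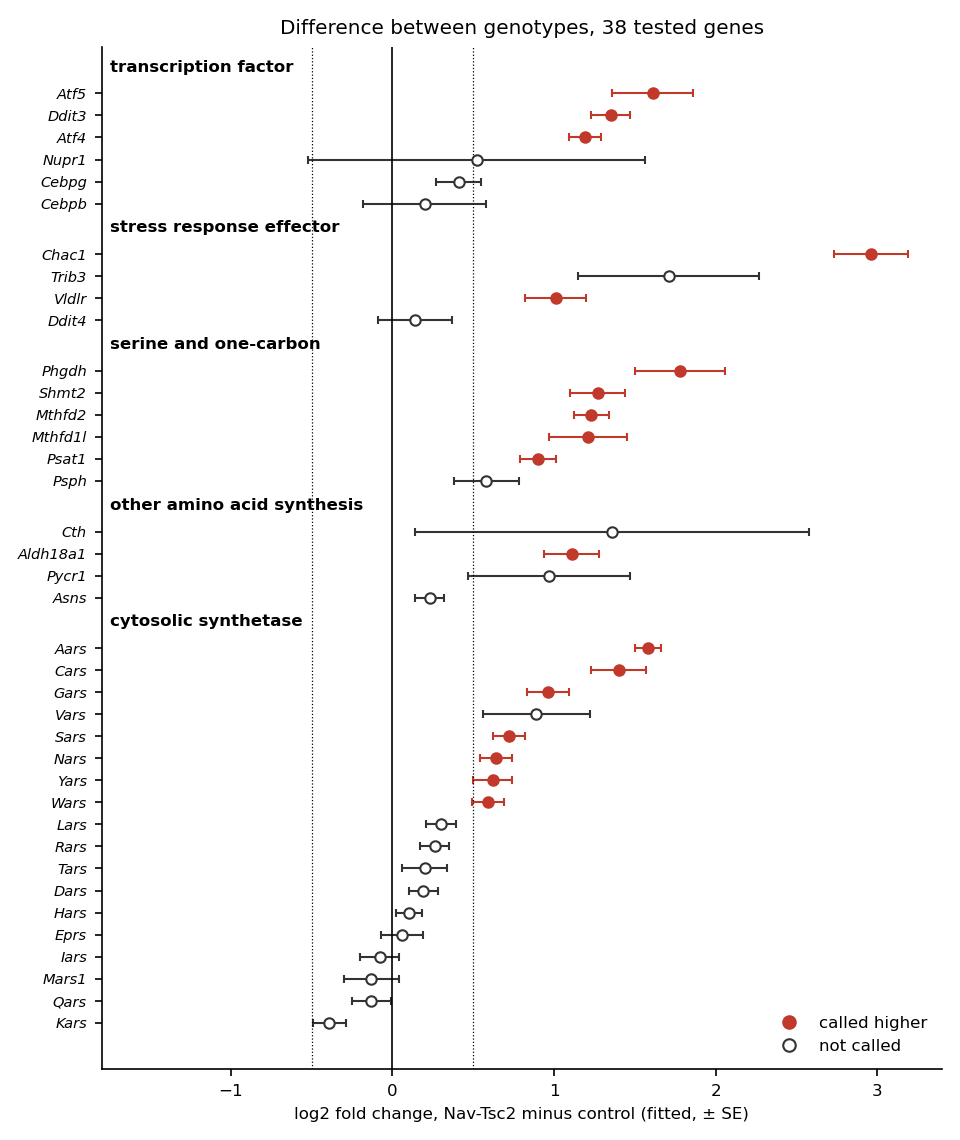
Fitted log2 fold change between Nav-Tsc2 and control mice (x axis) with its standard error for the 38 tested members, grouped by role; filled points were called higher and dotted lines mark the limits of -0.5 and 0.5. Chac1 lay farthest to the right at 2.96, 5 of 6 serine and one-carbon genes were called, and the synthetases spread from -0.39 (Kars) to 1.58 (Aars).

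Among the transcription factors, Atf4, Atf5 and Ddit3 were higher and Cebpb, Cebpg and Nupr1 did not pass the test. Atf4 (mm10, chr15:80255184-80257541, plus strand) measured 88.9, 76.1, 102 and 81.9 CPM in control mice 1 to 4 and 194, 199, 208 and 194 CPM in Nav-Tsc2 mice 1 to 4. The lowest Nav-Tsc2 mouse was thus far above the highest control, and the 12 Nav-Tsc2 libraries (177 to 231 CPM) all exceeded the 12 control libraries (51.8 to 149 CPM). The fitted log2 fold change was 1.19 ± 0.10 (SE, n = 4 mice per genotype; edgeR adjusted p = 9.36e-05). Atf5, a close relative of Atf4 that also responds to mitochondrial stress, rose from 9.34 ± 3.22 CPM (SD) to 28.4 ± 1.49 CPM, the control mice running from 5.08 to 12.9 and the Nav-Tsc2 mice from 26.3 to 29.6 (log2 fold change 1.61 ± 0.25, edgeR adjusted p = 0.00190). Ddit3 encodes CHOP, a factor of the later stress response. It measured 57.6, 79.9, 79.0 and 62.6 CPM in controls and 183, 165, 172 and 194 CPM in Nav-Tsc2, with no overlap (1.35 ± 0.12, edgeR adjusted p = 0.000132). Of the exon bases of Ddit3, 4.73% were shared with other annotated genes, Mars1 on the opposite strand among them.

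The C/EBP partners differed less. Cebpg ran from 24.5 to 37.1 CPM in controls and from 36.2 to 40.8 CPM in Nav-Tsc2, overlapping in 1 Nav-Tsc2 mouse, and its log2 fold change of 0.41 ± 0.14 did not pass (edgeR adjusted p = 0.0609), though it was called without control mouse 3. Cebpb was low, at 1.73 to 3.46 CPM in controls and 1.89 to 4.43 CPM in Nav-Tsc2 (0.20 ± 0.38, edgeR adjusted p = 0.771), and 20.7% of its exon bases overlapped Tmem189 on the opposite strand. Nupr1, a small stress-induced nuclear protein, varied more between mice than between genotypes. Its values were 3.30, 2.10, 19.2 and 52.3 CPM in controls and 9.92, 78.8, 14.2 and 7.02 CPM in Nav-Tsc2 (0.52 ± 1.04, edgeR adjusted p = 0.780). Without Nav-Tsc2 mouse 2 the sign turned, to a log2 fold change of -0.89.

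The effectors split in the same way, with Chac1 and Vldlr higher. Chac1, a cyclotransferase that breaks down glutathione, had the largest difference of all members tested, 7.79-fold. Control mice measured 5.78, 3.94, 7.13 and 3.61 CPM and Nav-Tsc2 mice 43.9, 38.0, 42.3 and 35.4 CPM. The groups were far apart, also by library (0.697 to 14.7 against 23.3 to 69.7 CPM), and the log2 fold change was 2.96 ± 0.23 (edgeR adjusted p = 5.93e-05), above that of 97.7% of the genes tested. Vldlr, a lipoprotein and reelin receptor, ran from 9.90 to 17.0 CPM in controls and from 21.8 to 26.8 CPM in Nav-Tsc2 (1.01 ± 0.19, edgeR adjusted p = 0.00519). Trib3, a pseudokinase that restrains Akt and ATF4, measured 2.56, 3.37, 2.04 and 0.301 CPM in controls and 6.75, 6.99, 7.74 and 5.67 CPM in Nav-Tsc2. Its mice did not overlap, yet with the scatter at these low counts the log2 fold change of 1.71 ± 0.56 missed the threshold (edgeR adjusted p = 0.0578). It passed with DESeq2, with sex as a covariate, with the 24 libraries in a random effect model, and without control mouse 2 or 4. Ddit4 (REDD1), which restrains mTORC1 through the TSC1/TSC2 complex, stayed between 4.50 and 6.44 CPM in controls and between 4.67 and 6.60 CPM in Nav-Tsc2 (0.14 ± 0.23, edgeR adjusted p = 0.724).

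**Figure D2:**
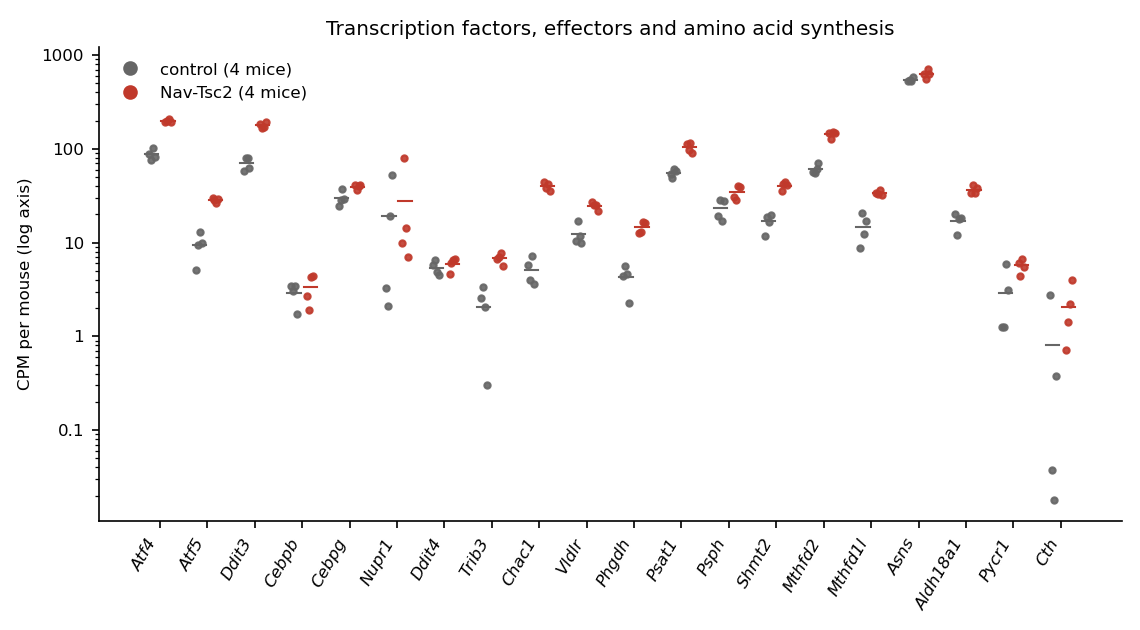
Level of each of the 20 tested members that are not synthetases in every mouse, in CPM on a log axis; points are mice (4 per genotype) and bars are group means. Chac1 sat between 3.61 and 7.13 CPM in control mice and between 35.4 and 43.9 CPM in Nav-Tsc2 mice, while Nupr1 and Cth spread widely within each genotype.

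The secreted factors were near the detection limit in these neurons. Gdf15, a stress hormone, gave 0 counts in all 4 control mice and 6, 10, 28 and 42 counts in Nav-Tsc2 mice 1 to 4. Against an assumed floor of 3 counts over the control group (0.0138 CPM), its 0.381 CPM over the Nav-Tsc2 group was 27.6-fold higher. The floor covers the counting error of the controls only. The ratio leaves out the error of the Nav-Tsc2 counts and the spread between mice, and it carries no test. Gdf15 was too low to be tested in the fit over all mice. Fgf21, a metabolic hormone, gave 27 counts in control mouse 1 and 0 in the other controls, and 0, 2, 8 and 0 counts in Nav-Tsc2 mice.

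A promoter search was used to see which members carry the composite element that ATF4 is known to bind. The window of 250 bases before to 50 bases after each RefSeq gene start (GRCm38.p6) was searched on both strands for TGATGNAA. Windows were at hand for 33 of the 41 members, and 12 of them (36.4%) held a match, against 1219 of 27025 genes (4.51%). The members were listed as ATF4 targets, so this share describes the list and is no independent evidence. Of the members called higher 5 of 15 held a match (33.3%), and of the others 7 of 18 did (38.9%). By class, 5 of 11 synthetases and 3 of 4 effectors held a match but 0 of 6 serine and one-carbon genes did, nor did any of 14 mitochondrial synthetases. Shown first are the 5 windows of called members with a match, then Asns and Iars, which held a match and were not called. They read 5′ to 3′ on the gene's strand, with the match in capitals.
Chac1: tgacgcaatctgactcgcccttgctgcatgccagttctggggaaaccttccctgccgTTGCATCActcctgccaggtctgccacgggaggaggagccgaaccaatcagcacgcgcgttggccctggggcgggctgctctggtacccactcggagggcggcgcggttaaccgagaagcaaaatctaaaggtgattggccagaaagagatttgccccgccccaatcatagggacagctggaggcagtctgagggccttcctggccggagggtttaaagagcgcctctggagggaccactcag
Vldlr: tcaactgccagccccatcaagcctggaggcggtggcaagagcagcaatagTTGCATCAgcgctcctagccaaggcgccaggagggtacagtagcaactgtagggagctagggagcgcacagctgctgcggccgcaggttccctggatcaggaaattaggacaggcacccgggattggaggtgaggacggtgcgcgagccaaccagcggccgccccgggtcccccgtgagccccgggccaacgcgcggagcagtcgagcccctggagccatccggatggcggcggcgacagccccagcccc
Aars: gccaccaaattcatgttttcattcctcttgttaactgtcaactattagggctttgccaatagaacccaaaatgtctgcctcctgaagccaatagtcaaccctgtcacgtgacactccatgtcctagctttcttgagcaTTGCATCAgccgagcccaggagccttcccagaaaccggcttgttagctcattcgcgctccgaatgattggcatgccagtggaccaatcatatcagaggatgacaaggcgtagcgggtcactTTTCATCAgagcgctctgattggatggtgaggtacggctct
Gars: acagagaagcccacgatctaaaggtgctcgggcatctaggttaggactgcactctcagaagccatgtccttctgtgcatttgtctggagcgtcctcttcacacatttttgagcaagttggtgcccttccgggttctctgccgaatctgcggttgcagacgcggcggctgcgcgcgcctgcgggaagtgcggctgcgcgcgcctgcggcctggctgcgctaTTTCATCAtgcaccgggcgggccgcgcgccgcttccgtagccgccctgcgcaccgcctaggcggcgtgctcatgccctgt
Yars: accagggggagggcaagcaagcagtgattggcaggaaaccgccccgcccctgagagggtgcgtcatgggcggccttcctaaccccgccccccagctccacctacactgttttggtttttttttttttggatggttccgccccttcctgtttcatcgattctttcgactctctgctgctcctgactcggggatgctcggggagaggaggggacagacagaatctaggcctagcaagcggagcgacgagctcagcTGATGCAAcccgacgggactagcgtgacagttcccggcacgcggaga
Asns: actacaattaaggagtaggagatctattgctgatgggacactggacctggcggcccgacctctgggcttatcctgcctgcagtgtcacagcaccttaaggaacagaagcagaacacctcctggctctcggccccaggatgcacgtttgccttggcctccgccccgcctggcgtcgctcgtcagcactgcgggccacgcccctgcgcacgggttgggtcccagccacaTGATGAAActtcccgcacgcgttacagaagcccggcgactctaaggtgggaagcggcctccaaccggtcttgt
Iars: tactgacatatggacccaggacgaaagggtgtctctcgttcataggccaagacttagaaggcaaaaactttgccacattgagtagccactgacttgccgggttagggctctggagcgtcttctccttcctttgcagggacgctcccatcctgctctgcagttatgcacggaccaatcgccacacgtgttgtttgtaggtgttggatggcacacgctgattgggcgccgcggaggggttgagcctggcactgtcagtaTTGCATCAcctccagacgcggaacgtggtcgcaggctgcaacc
The windows lie at chr2:119350992-119351291 (Chac1, plus strand), chr19:27216770-27217069 (Vldlr, plus), chr8:111033592-111033891 (Aars, plus), chr6:55037751-55038050 (Gars, plus), chr4:129189653-129189952 (Yars, plus), chr6:7693160-7693459 (Asns, minus) and chr13:49681880-49682179 (Iars, plus). Chac1 and Vldlr held the same 8 letters, TTGCATCA, which are the reverse complement form, beginning 193 and 200 bases before the start. Aars held 2 matches, TTGCATCA at 112 bases before the start and TTTCATCA at 9 bases after it. Iars carried TTGCATCA as well, 7 bases after its start, and its mRNA level did not pass the test. A match is a string of letters and not a measured binding site.

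Enzymes of serine synthesis and one-carbon metabolism were mostly higher, with 5 of 6 called and a median log2 fold change of 1.22, and their summed level went from 46.3 to 100 CPM per kilobase. Serine synthesis runs through Phgdh, Psat1 and Psph in turn. Phgdh, the entry enzyme, measured 4.44, 5.68, 4.58 and 2.27 CPM in controls and 12.5, 13.0, 16.7 and 16.1 CPM in Nav-Tsc2 (1.78 ± 0.28, edgeR adjusted p = 0.00206). Psat1 measured 53.8, 48.6, 61.5 and 58.3 CPM against 112, 97.1, 115 and 89.5 CPM (0.90 ± 0.11, edgeR adjusted p = 0.000699). In both genes every Nav-Tsc2 mouse was above every control. Psph, the final step, ran from 17.1 to 28.3 CPM in controls and from 28.1 to 40.2 CPM in Nav-Tsc2, so that the groups met at 1 mouse, and 0.58 ± 0.20 did not pass (edgeR adjusted p = 0.0678), whereas DESeq2 and the random effect model called it. Opposite-strand Cct6a shares 10.4% of its exon bases. Phgdh and Psat1 are also well expressed by glia. S100b, which alone was called among the glial markers, fell from 939 ± 166 to 98.6 ± 71.2 CPM. The other 13 summed to 2028 to 2463 CPM in control mice and 2058 to 2499 CPM in Nav-Tsc2 mice. S100b was left out of this sum after its value was seen. Pmp22 alone averaged 1481 CPM in controls and 1570 CPM in Nav-Tsc2, so the sum mostly reflects that gene. The part of glia in the values of Phgdh and Psat1 was not tested.

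Among the members, the mitochondrial enzymes Shmt2, Mthfd2 and Mthfd1l take serine to formate, and all were called. Shmt2, which moves a carbon from serine to folate, rose from 16.8 ± 3.59 to 40.5 ± 3.74 CPM, with control mice at 11.8 to 19.8 and Nav-Tsc2 mice at 35.2 to 43.8 (1.27 ± 0.17, edgeR adjusted p = 0.000951). Mthfd2, the next enzyme, measured 56.7, 55.7, 61.1 and 70.8 CPM against 148, 126, 152 and 148 CPM (1.23 ± 0.11, edgeR adjusted p = 9.63e-05). Mthfd1l, which releases formate, ran from 8.69 to 20.8 CPM and from 32.2 to 36.7 CPM (1.21 ± 0.24, edgeR adjusted p = 0.00687). These log2 fold changes, 1.21 to 1.27, lay within each other's standard errors. Other one-carbon and folate genes did not move in 1 direction: of 13, 2 were higher, 2 were lower and the median was -0.21. Some of these are mitochondrial too: Mthfd2l (-0.28, edgeR adjusted p = 0.615) and Aldh1l2 (-0.03, edgeR adjusted p = 0.979) were not called, whereas Gldc was. Also mitochondrial and not called were Gcsh (-0.21, edgeR adjusted p = 0.169) and Amt (-0.67, edgeR adjusted p = 0.176). Gldc, the glycine cleavage decarboxylase, rose from 0.218 ± 0.158 to 3.17 ± 0.997 CPM (3.85, edgeR adjusted p = 0.00324), and Aldh1l1, a cytosolic folate dehydrogenase best known from astrocytes, from 2.06 ± 1.70 to 23.8 ± 6.34 CPM (3.53, adjusted p = 0.00396). The cytosolic enzymes Mthfs (-1.21, adjusted p = 0.0125) and Mthfd1 (-0.57, adjusted p = 0.0463) fell. Without control mouse 1, 2 or 3 or Nav-Tsc2 mouse 1, 3 or 4, with mouse number as a block, with no filter on low counts and with libraries weighted equally, 1 gene of the list was called lower in place of 2, and 0 were at an adjusted p below 0.01.

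Of the remaining amino acid enzymes only Aldh18a1 was called, among 4 tested. Aldh18a1, which starts proline synthesis from glutamate, measured 19.9, 11.9, 18.0 and 18.1 CPM in controls and 33.6, 41.2, 34.0 and 37.7 CPM in Nav-Tsc2 (1.11 ± 0.17, edgeR adjusted p = 0.00180). Pycr1, which completes proline, ran from 1.25 to 5.95 CPM and from 4.39 to 6.73 CPM with overlap (0.97 ± 0.50, edgeR adjusted p = 0.204). It was called without control mouse 3. Asns, asparagine synthetase and a standard reporter of ATF4 activity, was the most abundant of the 41 members per kilobase in controls at 198 CPM per kilobase, above 98.5% of the genes tested. Its mice measured 525, 535, 527 and 575 CPM in controls and 631, 561, 716 and 623 CPM in Nav-Tsc2. Nav-Tsc2 mouse 2 lay below the highest control mouse, only 5 of 12 Nav-Tsc2 libraries exceeded the highest control library, and the log2 fold change of 0.23 ± 0.09 was not called (edgeR adjusted p = 0.0934). The transsulfuration genes were scarce. Cth gave 164, 2, 1 and 19 counts in controls and 35, 80, 135 and 234 in Nav-Tsc2, so that control mouse 1 alone overlapped (1.36 ± 1.22, edgeR adjusted p = 0.487), and it was called without that mouse. Cbs gave at most 4 counts in a control mouse and 17, 0, 16 and 0 in Nav-Tsc2 mice, and was not tested.

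**Figure D3:**
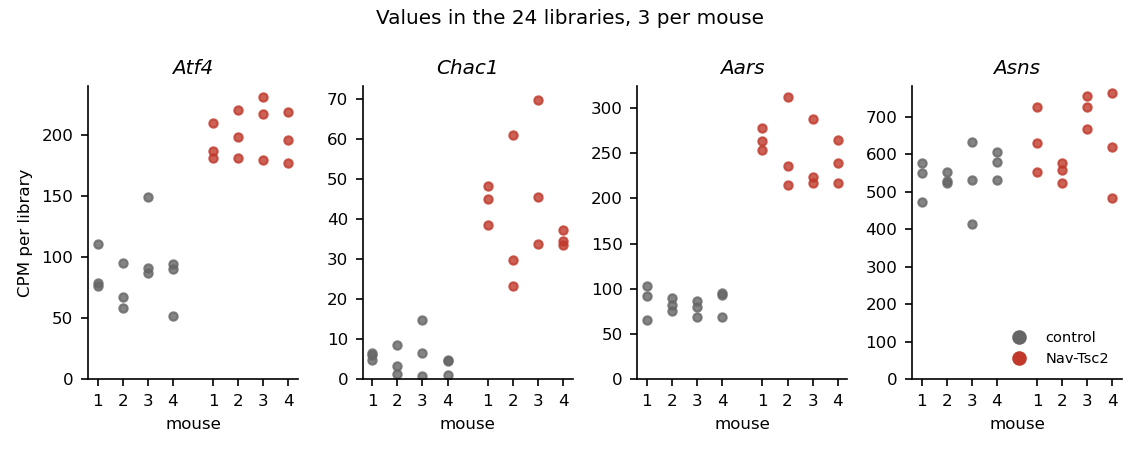
CPM of Atf4, Chac1, Aars and Asns in each of the 24 libraries (linear axes from 0), plotted by mouse, 3 libraries per mouse of 100 cells each. Every Nav-Tsc2 library exceeded every control library for Atf4, Chac1 and Aars, and 5 of 12 did for Asns.

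The 18 cytosolic synthetases did not move as a block. Of them 7 were called higher and 0 lower, 14 had a positive and 4 a negative log2 fold change, and the median was 0.28. All Nav-Tsc2 mice were above all controls for 9 and below for 1. Aars (alanyl-tRNA synthetase) had the smallest p of all members. It measured 84.3, 83.6, 75.5 and 87.6 CPM in controls and 264, 253, 230 and 241 CPM in Nav-Tsc2, and the narrow spread within each genotype left a wide gap (1.58 ± 0.08, edgeR adjusted p = 8.11e-06). Cars (cysteinyl) measured 15.4, 16.4, 21.3 and 15.0 CPM against 52.7, 42.2, 35.5 and 49.4 CPM (1.40 ± 0.17, edgeR adjusted p = 0.000484). For Gars (glycyl) the mice measured 105, 140, 158 and 143 CPM against 297, 281, 242 and 247 CPM (0.96 ± 0.13, edgeR adjusted p = 0.000990). Aars, Cars and Gars therefore rose to between 1.95 and 2.98 times the control level.

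The other called synthetases rose by less, 1.50- to 1.65-fold. Sars (seryl), the synthetase that uses the product of Phgdh, Psat1 and Psph, went from 298 ± 41.2 to 491 ± 28.5 CPM (0.72 ± 0.10, edgeR adjusted p = 0.00134). Nars (asparaginyl) was the most abundant synthetase, at 178 CPM per kilobase in controls and 277 in Nav-Tsc2. Its mice measured 744, 870, 672 and 817 CPM against 1179, 1106, 1337 and 1206 CPM (0.64 ± 0.10, edgeR adjusted p = 0.00194), and in absolute CPM this was the largest addition among the members. Yars (tyrosyl) rose from 112 ± 18.1 to 171 ± 12.2 CPM (0.62 ± 0.12, edgeR adjusted p = 0.00554). Wars (tryptophanyl) rose from 124 ± 15.1 to 187 ± 7.45 CPM (0.59 ± 0.10, edgeR adjusted p = 0.00275). Vars (valyl) was the scarcest, at 0.854 CPM per kilobase in controls. Its mice ran from 3.20 to 5.93 CPM and from 5.70 to 14.2 CPM, overlapping, and 0.89 ± 0.33 did not pass (edgeR adjusted p = 0.0839). DESeq2 and the random effect model called it.

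Set apart from these were the synthetases that sit in the cytosolic multi-synthetase complex, a scaffolded particle that holds Eprs, Iars, Lars, Mars1, Qars, Rars, Kars and Dars. None of these 8 was called (9.12% of all genes were called higher), their median log2 fold change was -0.009 and their range -0.39 to 0.30. Of the 10 member synthetases outside the complex 7 were called, with a median of 0.68 and a range of 0.10 to 1.58. The phenylalanyl synthetase subunits also lie outside it but are not members. Neither was called: Farsa at -0.13 (edgeR adjusted p = 0.444) and Farsb at -0.02 (edgeR adjusted p = 0.922). Summed over the complex, the level was 172 CPM per kilobase in controls and 174 in Nav-Tsc2. Over the 10 members outside it the level was 467 and 705. This grouping was chosen after the values had been seen and carries no test. Kars (lysyl), the lowest of the 4 synthetases with a negative log2 fold change, measured 216, 229, 196 and 250 CPM in controls and 168, 152, 182 and 180 CPM in Nav-Tsc2. All its Nav-Tsc2 mice were below all its controls, and with -0.39 ± 0.10 it passed the p threshold but not the fold limit (edgeR adjusted p = 0.0211). Lars (leucyl) was the reverse case, at 102, 89.3, 89.6 and 93.8 CPM against 125, 120, 111 and 104 CPM (0.30 ± 0.09, edgeR adjusted p = 0.0393). Rars (arginyl) had no overlap between mice, 102 to 122 CPM against 124 to 146 CPM, and did not pass (0.26 ± 0.09, edgeR adjusted p = 0.0668). Dars, Eprs, Iars, Mars1 and Qars overlapped between genotypes, with log2 fold changes from -0.13 to 0.19. Eprs, which carries both the glutamyl and the prolyl activity, ran from 258 to 400 CPM in controls and from 298 to 356 CPM in Nav-Tsc2. Outside the complex, Hars (histidyl, 251 to 299 CPM against 287 to 315 CPM, adjusted p = 0.412) and Tars (threonyl, 36.6 to 53.2 CPM against 43.7 to 54.5 CPM, adjusted p = 0.366) also overlapped.

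**Figure D4:**
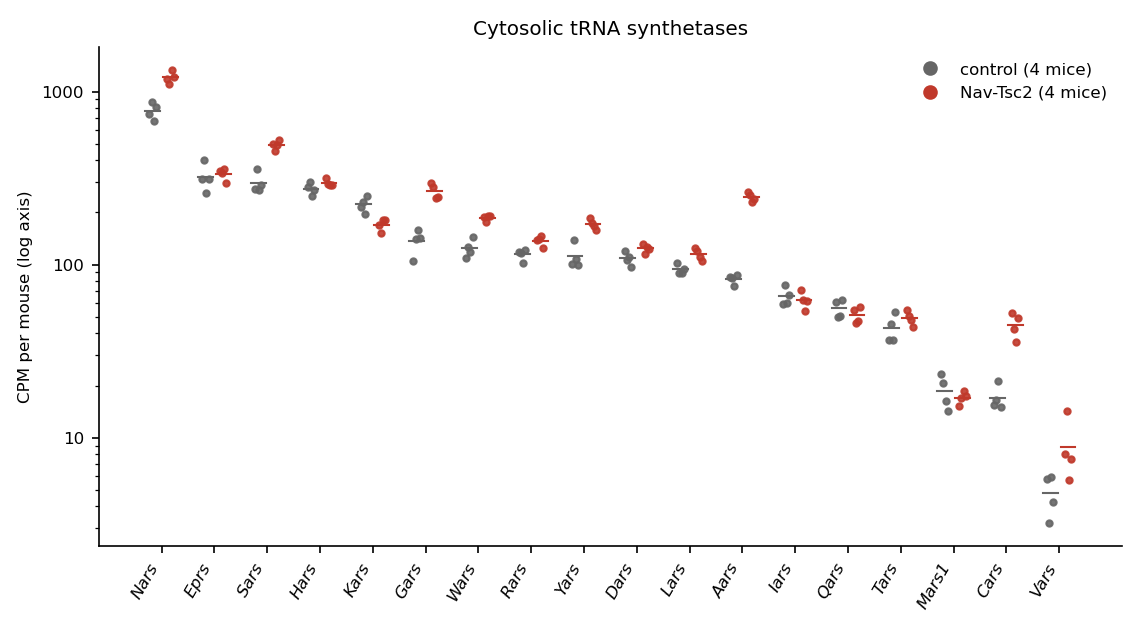
CPM of the 18 cytosolic synthetases in every mouse on a log axis, ordered by the control mean; points are mice (4 per genotype) and bars are means. Aars and Cars moved farthest from their control means, Nars was highest in both genotypes, and Kars is the gene whose Nav-Tsc2 mice all sat below its control mice.

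Among partners of the cytosolic synthetases, 1 gene was called. Of 6 genes, comprising the phenylalanyl synthetase subunits Farsa and Farsb, the scaffold proteins Aimp1, Aimp2 and Eef1e1 of the complex, and the tRNA exporter Xpot, only Xpot was called. Xpot measured 21.0, 32.0, 30.0 and 29.3 CPM in controls and 48.3, 39.9, 46.8 and 45.0 CPM in Nav-Tsc2 (0.68 ± 0.14, edgeR adjusted p = 0.00932). The mitochondrial synthetases listed were those that charge tRNAs inside the organelle and have a gene of their own. They gave 0 called higher of 17 tested in edgeR, with a median of 0.06. In either direction 4 of them had an unadjusted p below 0.05, and DESeq2 called 1 higher.

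**Figure D5:**
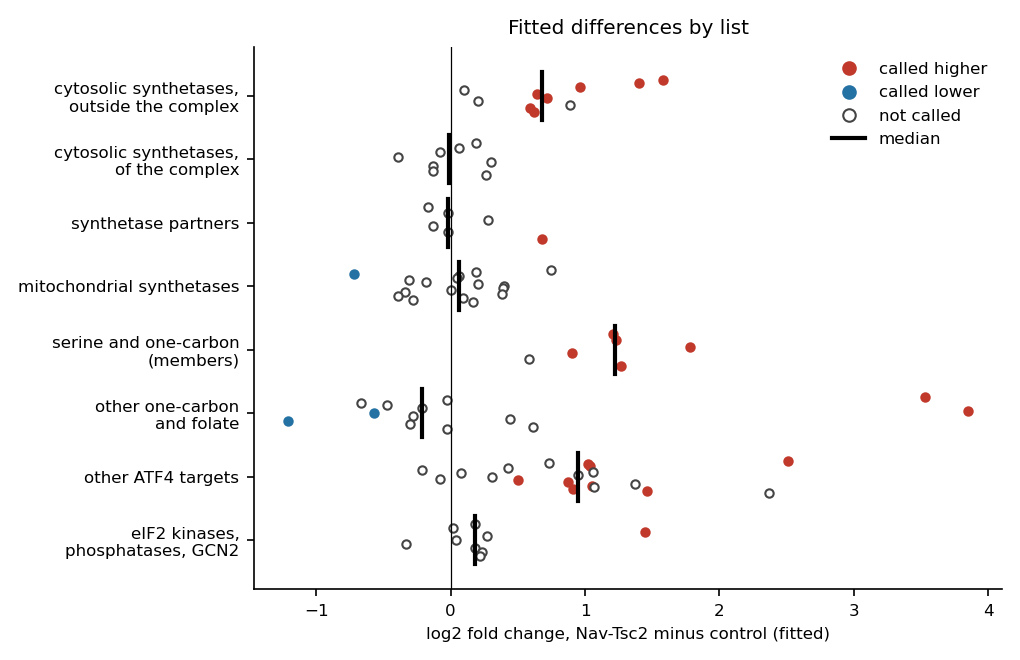
Fitted log2 fold change of each tested gene (x axis) by list, with the list median as a bar; red points were called higher, blue lower and open points not called. Medians were 0.68 for the 10 member synthetases outside the complex and -0.009 for the 8 of the complex. They were 0.06 for the 17 mitochondrial synthetases and 0.95 for the 19 other ATF4 targets.

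Genes known as ATF4 targets but not among the members, mainly transporters of amino acids, gave 8 higher and 0 lower of 19 tested, with a median of 0.95. The smallest adjusted p belonged to Atf3, Slc7a5 and Slc3a2. The count was 5 without Nav-Tsc2 mouse 1 and 5 without Nav-Tsc2 mouse 2. Slc7a5 and Slc3a2 form together the transporter of large neutral amino acids: Slc7a5 rose from 14.1 ± 2.92 to 38.8 ± 6.48 CPM (1.46, edgeR adjusted p = 0.000649) and Slc3a2 from 58.0 ± 7.90 to 106 ± 11.2 CPM (0.87, edgeR adjusted p = 0.00121). Atf3, an injury-induced transcription factor, rose from 76.0 ± 23.2 to 434 ± 32.6 CPM (2.51, edgeR adjusted p = 0.000114). Atf3 was also 1 of 8 genes in a list of dissociation and injury stress, whose sum was 238 to 492 CPM in control mice and 910 to 949 CPM in Nav-Tsc2 mice. In that list Atf3 and Sprr1a were higher, Fos was lower and the median log2 fold change was -0.02. The part of injury or dissociation in the members' differences was not tested.

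Upstream, the kinases that phosphorylate eIF2α, its phosphatase subunits and the regulators of GCN2 gave 1 higher of 9 tested, with a median of 0.18. The 1 was Eif2ak3, which encodes PERK, the kinase of the endoplasmic reticulum. It measured 22.7, 32.1, 34.3 and 26.7 CPM in controls and 87.9, 71.0, 70.5 and 86.6 CPM in Nav-Tsc2 (1.45 ± 0.15, edgeR adjusted p = 0.000264). Eif2ak4, which encodes GCN2, the sensor of uncharged tRNA, overlapped at 4.88 to 9.93 CPM against 5.90 to 10.2 CPM (0.27 ± 0.29, edgeR adjusted p = 0.563). Phosphorylation was not measured, and an mRNA level of a kinase is not its activity.

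Among the called members, the differences were of the same sign in males and females. All 18 were higher in Nav-Tsc2 in both sexes, with a smallest log2 ratio of 0.50 in either, from 2 mice per sex and genotype. The shared sign is no separate test, because the mice of the genotypes overlapped for none of these 18. Among the tested members not called, Cebpb, Nupr1, Ddit4, Cth, Eprs and Mars1 had log2 ratios of opposite sign in the sexes. The genotype effect differed between the sexes for 0 members in edgeR (4 had an unadjusted p below 0.05: Nupr1, Pycr1, Gars and Mars1), against 0.00582% of all genes. The smallest adjusted p was 0.272, for Nupr1. DESeq2 called 1 member (Nupr1), where it called 1.98% of all genes, and edgeR with no filter on low counts called 2 (Nupr1 and Cth), where it called 2.05% of all genes. Both members scattered widely between mice.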

How the data were processed

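RNA of 100 sorted cells per library was amplified with the SMARTer Ultra Low kit (PCR without molecular identifiers) and sequenced as single reads on 24 libraries from 8 mice. Per the labels and methods, the authors aligned reads to mm10 with STAR and counted them per gene with HTSeq, and deposited whole-number counts per library. Versions, annotation release and strand setting are not given in the sources used here, so overlapping genes on opposite strands may share reads. Rows of unassigned alignments (48.8% ± 1.20 and 51.1% ± 1.94) were left out. A deposited table of the authors' own comparison (fold changes, p-values, scaled counts) was not used.

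The 3 libraries made from 1 mouse are technical repeats and their counts were added up. Genes passing filterByExpr (17178, of 30194 with a count) were scaled by TMM and tested with the quasi-likelihood F-test of edgeR 4.0.16 in R 4.3.3, Nav-Tsc2 against control, with Benjamini-Hochberg adjustment over all of them. Calls needed an adjusted p below 0.05 and an absolute log2 fold change above 0.5. SE is the log2 fold change divided by the root of F. CPM are counts per 1000000 of the TMM-scaled total, and CPM per kilobase divides by all exon bases of a GRCm38 gene annotation. Intervals and floors cover counting error only, and p-values cover the spread between 4 mice per genotype. The sex interaction used the same fit with a product term. Scripts were tested on simulated data. Promoter windows came from RefSeq (GRCm38.p6).

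Named genes were all 41 members, Tsc2, and of each comparison list up to 3 called genes per direction with the smallest adjusted p. Eif2ak4, Mthfd2l, Aldh1l2, Gcsh, Amt, Pmp22 and the synthetase partners were named after their values were seen. Single results for a few genes of the marker and comparison lists are not reported here. Members, lists and tests were chosen with earlier results of these data known. Alternatives were DESeq2 1.42.0, other scaling, the unfiltered table, mouse number as a replicate block, a term for sex, equal library weights, limma 3.58.1 (voom) with all 24 libraries and a random effect of mouse, other thresholds, and each mouse left out.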

Additional observations from a re-analysis of the deposited data

Results flagged for a closer look

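In each member and genotype (82 groups of 4 mice), a mouse was singled out where its gap to the nearest other mouse, as a share of the group's range, exceeded Dixon's critical value at the 95% level, which chance alone does in about 1 of 20 groups. This happened in 5 of the 82 groups. Nupr1 in Nav-Tsc2 mouse 2 measured 78.8 CPM, the next being 14.2 CPM. Cth in control mouse 1 measured 2.78 CPM, the next 0.382 CPM. Fgf21 in control mouse 1 was at 0.458 CPM (27 counts) with the other controls at 0. Hars in Nav-Tsc2 mouse 1 was at 315 CPM, the next 290 CPM, and Mthfd2 in Nav-Tsc2 mouse 2 was lowest at 126 CPM, the next 148 CPM. Mthfd2 was called higher with and without that mouse.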

How the results depend on the processing

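All 18 members called higher were called in each of 18 other settings (16 other fits and 2 thresholds), where the number called ranged from 18 to 23 (22 with DESeq2, 23 with the 24 libraries in a random effect model, 18 to 21 with 1 mouse left out; some of these counts include Gdf15, which could pass the filter only through the Nav-Tsc2 mice). Members called lower stayed at 0 except with no limit on the fold change, which gave 1 (Kars) and added Lars to those higher. Of 684 member values, 664 kept direction and call, 16 gained a call, 0 lost one and 4 turned in sign, none of them called. With 1 mouse left out, Mars1 ranged from -0.24 to 8.8e-05 (without control 1), Iars from -0.15 to 0.0053 (without control 2), Eprs from -0.04 (without control 3) to 0.18 and Nupr1 from -0.89 (without Nav-Tsc2 2) to 1.74 (without control 4). The cause was not tested. Members with a sex difference numbered 1 with DESeq2 and 2 with no filter, settings that called 366 genes (1.98%) and 618 genes (2.05%) in all. Over all genes 2941 were called, 1599 at an adjusted p below 0.01 and from 2145 to 3502 with 1 mouse left out; the split was 1567 higher and 1374 lower, and 2207 and 1253 in the random effect model. With mouse number as a replicate block, 18 members and 2445 genes were called, and no member's call changed. Same-numbered mice correlated at 0.0341 to 0.124 across 8445 genes and 5 of 8 mice correlated best with their own number. Same-numbered mice also shared their sex, so this check cannot settle whether the number marks a pairing. In the main fit the number was not taken as a pairing. Low counts limit Gdf15, Fgf21, Cbs and Cth.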
